A study of Mus musculus with 14 samples.

Results

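The 6 libraries described here measured gene expression in supporting cells (SCs) from the postnatal day 6 (P6) mouse cochlea after 24 hr of Notch inhibition, as 3 matched pairs of 1 compound E and 1 DMSO library each. They were taken from the 14 libraries of the series by their labels, and the pairs by replicate number, which at P6 equals the labelled batch. Of 35976 genes counted, the 15322 that passed a low-count filter at P6 were compared. The genes described most fully are those that were lower, or higher, with compound E in 3 of 3 pairs.

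Cochlear explants came from Lfng-EGFP mice, strain B6;FVB-Tg(Lfng-EGFP)HM340Gsat/Mmucd kept on a C57BL/6 background, and every group carried this transgene. Treated explants received 2 µM compound E, a γ-secretase inhibitor, dissolved in DMSO, and control explants received DMSO alone, both for 24 hr from P6. Cells positive for EGFP were then sorted and their RNA was amplified as full-length cDNA, without molecular identifiers. The other 8 libraries, 4 treated and 4 control, were made in the same way at P0 and served for comparison. EGFP was driven by regulatory sequence of Lfng, which is itself regulated by Notch, so the gate and the treatment are not independent, and the part of the gate in each result was not tested. Tissue from several organs was pooled in each tube, so each library is a pool, and p-values measure only the spread between such pools.

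In Notch signaling, a ligand of the Delta or Jagged family on 1 cell activates a receptor on its neighbor, and γ-secretase then frees the intracellular domain of the receptor, which enters the nucleus and activates Hes and Hey genes with RBPJ and Mastermind-like coactivators. In the organ of Corti, hair cells (HCs) carry ligands and the SCs around them respond, which holds down Atoh1, the transcription factor that starts HC differentiation. Blocking γ-secretase in the newborn cochlea is known to let some SCs take on HC features, a capacity that declines over the first postnatal week.

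Library totals ranged from 23972228 to 41207627 counts. In a principal component analysis, PC1 held 42.7% of the variance and placed both libraries of pair 3 at one end and DMSO replicate 1 at the other. Within-pair log2 ratios of compound E over DMSO had an SD over genes of 1.27 in pair 1, 0.92 in pair 2 and 0.44 in pair 3. The spread was thus narrowest in pair 3. DMSO replicate 3 was below both other DMSO libraries for 24.9% of tested genes and above both for 41.9%, and these shares are given beside the results below because markers of several cell types moved with this library.

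Across all genes, 2466 (16.1%) were lower with compound E in 3 of 3 pairs and 2604 (17%) were higher in 3 of 3. With edgeR's quasi-likelihood test and the pair as a block, 0% of genes reached an adjusted p of at most 0.01 with a 2-fold difference, and the lowest adjusted p was 0.0904, for Heyl. At an unadjusted p under 0.05 that fit held 562 genes lower (3.67%) and 546 genes higher (3.56%). DESeq2 with the same block and thresholds, over 15741 genes, called 40 genes lower (0.254%) and 15 higher (0.0953%). These 55 genes are named below as past the DESeq2 thresholds, and each also had an edgeR adjusted p of at least 0.0904. The DESeq2 counts were 30 lower and 17 higher without pair 1, 15 and 6 without pair 2, and 43 and 25 without pair 3.

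All 7 canonical targets on the list were lower with compound E in 3 of 3 pairs, beside 16.1% of all tested genes. For 5 of the 7, no compound E library reached the lowest DMSO library in reads per 1000000 counts of the library (RPM), a separation seen for 4.14% of tested genes in this direction and for 3.04% in the other. The summed level of the 7 targets was 1597, 1428 and 777 RPM with compound E (replicates 1, 2 and 3) and 3510.3, 3133 and 1724 RPM in DMSO. The log2 ratio of these sums was -1.14, -1.13 and -1.15 in the 3 pairs. Lfng made up most of the sum, with 2624 of 3510.3 RPM in DMSO replicate 1. The within-pair log2 ratios of Hes5, Hes1 and Nrarp were smaller in size in pair 3 than in pairs 1 and 2. In pairs 1, 2 and 3 they were -3.85, -5.36 and -1.69 for Hes5, -2.29, -2.01 and -1.17 for Hes1 and -2.10, -1.96 and -1.22 for Nrarp. Not every target followed this, since Lfng was at -1.08, -1.13 and -1.31.

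**Figure D1:**
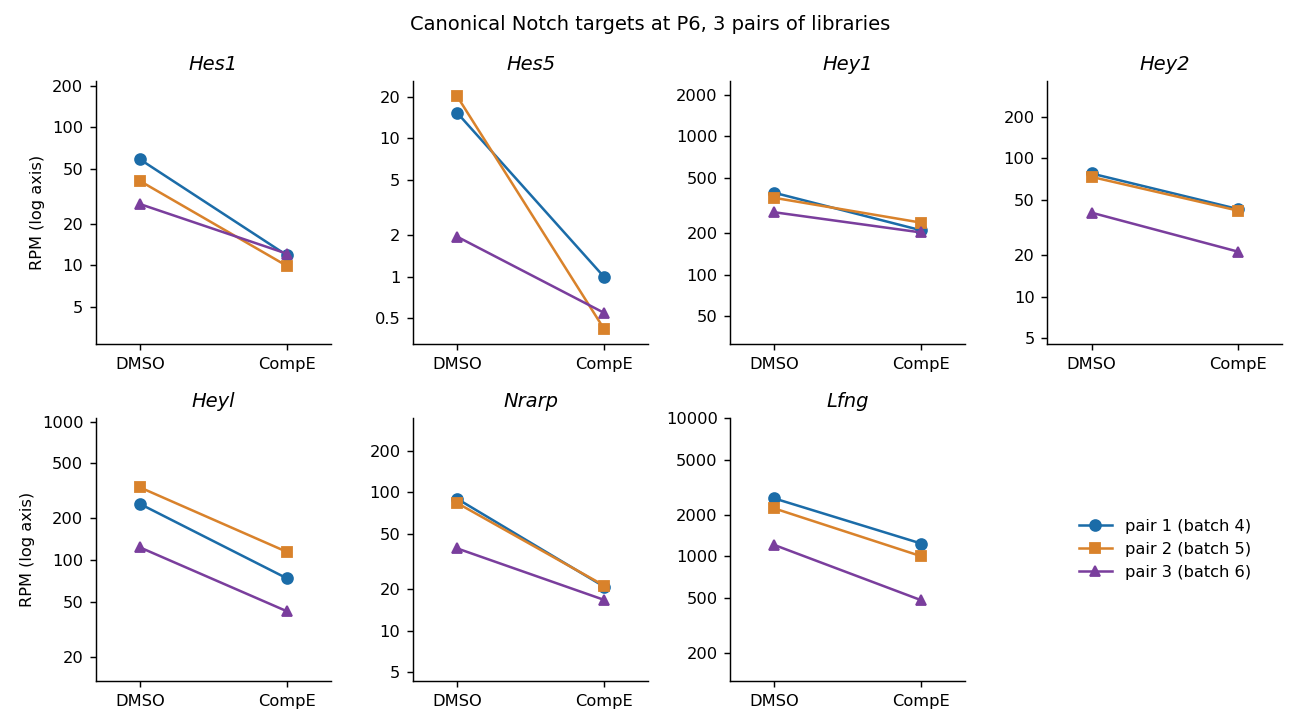
Level of the 7 canonical Notch targets in each P6 library, in RPM on a log axis that spans the same fold range in every panel, with DMSO on the left and compound E (CompE) on the right. Points joined by a line are the 2 libraries of a pair, and every line slopes down from DMSO to compound E, most for Hes5 and least for Hey1.

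Hes1 and Hes5 encode transcriptional repressors that hold down HC genes in SCs. Hes5 was 0.994, 0.418 and 0.546 RPM with compound E and 15.3, 20.1 and 1.94 RPM in DMSO for replicates 1, 2 and 3. The DMSO level was thus low already in replicate 3, and pair 3 had the smallest ratio. The fitted log2 fold change was -3.80 ± 0.77 (SE, 3 pairs), with a DESeq2 adjusted p of 7.44e-06. Hes1 was 11.9, 9.93 and 12.2 RPM with compound E and 58.5, 40.8 and 27.8 RPM in DMSO, without overlap. Its log2 fold change was -1.83 ± 0.25 and its DESeq2 adjusted p 6.85e-08. The 3 Hey repressors were lower to different degrees. Heyl was 73.7, 114 and 42.6 RPM with compound E and 254, 335 and 123 RPM in DMSO, a log2 fold change of -1.61 ± 0.10 and a DESeq2 adjusted p of 6.39e-34. Hey1 was 209, 238 and 202 RPM with compound E and 391, 359.6 and 283 RPM in DMSO (-0.65 ± 0.11 on the log2 scale), and the groups did not overlap. For Hey2, a marker of pillar cells, the values were 42.9, 41.8 and 21.1 RPM with compound E and 77.8, 73.5 and 40.5 RPM in DMSO (-0.86 ± 0.11). Both Hey1 and Hey2 stayed below a 2-fold difference, with DESeq2 adjusted p of 0.000118 and 2.84e-05. The other 5 targets were past the DESeq2 thresholds, and 4, 4 and 5 targets were past them without pair 1, 2 and 3.

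The other 2 targets feed back on the pathway. Nrarp, which limits the activity of the freed receptor domain, was 20.8, 21.2 and 16.7 RPM with compound E and 89.8, 83.6 and 39.3 RPM in DMSO. Its log2 fold change was -1.77 ± 0.20 and its DESeq2 adjusted p 1.99e-11. Lfng, a glycosyltransferase that modifies the receptors and whose regulatory sequence drove the sorting reporter, was 1238, 1002 and 482 RPM with compound E and 2624, 2221 and 1209 RPM in DMSO. Compound E replicate 1, at 1238 RPM, lay above DMSO replicate 3, at 1209 RPM, so the groups overlapped although every pair was lower (-1.17 ± 0.084, DESeq2 adjusted p 4.28e-32). Over the fits tried, the adjusted p of Heyl and of Lfng ranged up to 0.9998, in the edgeR fit without the block. In sorted bulk samples, fewer cells of a type and less RNA per cell cannot be told apart. Reads on Hes5 and Nrarp also cannot be separated from those of the genes annotated on the opposite strand, Gm20421 and Gm38287, because the strand setting of the counting is not given in the sources used here.

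The upstream sequences of 3 targets are shown because they hold GTGGGAA, a sequence bound by RBPJ, the DNA-binding partner of the freed receptor domain, in the bases just before the start of the gene. They come from RefSeq (GRCm38.p6), cover 250 bases upstream of the annotated start, are written 5′ to 3′ on the strand of the gene, and carry the motif or its reverse complement TTCCCAC in capitals. Hes5 lies at chr4:154960673-154960922 on the plus strand, Lfng at chr5:140607091-140607340 on the plus strand, and Hey2 at chr10:30842784-30843033 on the minus strand.
Hes5: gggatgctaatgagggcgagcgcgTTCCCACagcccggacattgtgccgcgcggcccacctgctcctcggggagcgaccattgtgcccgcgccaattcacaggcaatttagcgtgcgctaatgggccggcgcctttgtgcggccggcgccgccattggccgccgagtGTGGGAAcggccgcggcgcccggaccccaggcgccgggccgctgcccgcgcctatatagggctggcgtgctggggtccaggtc
Lfng: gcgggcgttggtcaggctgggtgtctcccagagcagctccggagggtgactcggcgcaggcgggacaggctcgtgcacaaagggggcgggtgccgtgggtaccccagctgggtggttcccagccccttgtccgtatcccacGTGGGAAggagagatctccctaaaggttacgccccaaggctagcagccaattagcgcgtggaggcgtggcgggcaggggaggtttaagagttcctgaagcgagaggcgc
Hey2: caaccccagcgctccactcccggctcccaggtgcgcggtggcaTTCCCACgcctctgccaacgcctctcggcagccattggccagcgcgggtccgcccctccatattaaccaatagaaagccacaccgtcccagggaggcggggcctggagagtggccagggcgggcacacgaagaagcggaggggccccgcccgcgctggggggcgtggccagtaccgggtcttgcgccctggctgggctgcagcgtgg
Positions below count back from the base before the start, which is -1. Hes5 held the motif at -226 on the opposite strand and at -83 on the gene's strand, Lfng at -109 on the gene's strand, and Hey2 at -207 on the opposite strand. Nrarp held no match in this window. Hes1, Hey1 and Heyl were not among the sequences used. Of 11445 tested genes with a window, 763 (6.67%) held GTGGGAA on either strand, as did 6 of 31 genes past the DESeq2 thresholds downward (19.4%) and 0 of 12 upward. The 6 included Hes5 and Lfng, shown above because they hold the motif, and the others were Asic2, C030013G03Rik, D430041D05Rik and Exph5. For the shorter core TGGGAA, which every GTGGGAA contains, the shares were 24.1% of tested genes, 14 of 31 (45.2%) and 3 of 12 (25%). A match is a description of these letters and not a binding site.

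Among the other components of the pathway, a ligand and a pair of receptors were lower with compound E. Jag1, the ligand that SCs themselves express, was 504, 267 and 192 RPM with compound E and 967, 562 and 359 RPM in DMSO. The log2 fold change was -0.96 ± 0.082 and close to the 2-fold limit, with a DESeq2 adjusted p of 3.14e-20. Notch1 was 141, 64.4 and 126 RPM with compound E and 246, 132 and 175 RPM in DMSO (-0.76 ± 0.13, DESeq2 adjusted p 0.00011). Notch3, a receptor that mural cells of vessels also carry, was 81.3, 58.2 and 74.6 RPM with compound E and 174, 93.8 and 101 RPM in DMSO, without overlap (-0.73 ± 0.15, DESeq2 adjusted p 0.00379). Notch2 and Notch4 were mixed over the pairs. Beside 16.1% and 17% of all tested genes, 1 of the 7 ligands was lower in 3 of 3 pairs, namely Jag1, and 2 were higher. One of these was Jag2, a ligand of HCs, at 18.3, 24.9 and 37.6 RPM with compound E and 16.4, 13.6 and 28.7 RPM in DMSO (0.49 ± 0.19), while Dll1, Dll4, Dlk1 and Dlk2 were mixed and Dll3 stayed under 5 RPM.

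Of 15 genes of γ-secretase, its helper proteases and the nuclear complex, 2 were higher and 2 lower in 3 of 3 pairs, which is close to the share of all genes. Adam10, the protease that cuts the receptor before γ-secretase does, was 648, 713 and 722 RPM with compound E and 529.99, 533 and 592 RPM in DMSO (0.34 ± 0.081). Aph1c, a γ-secretase subunit, was 39.3, 37.4 and 30.6 RPM with compound E and 25.3, 23.2 and 25 RPM in DMSO (0.55 ± 0.14). Neither group overlapped, yet neither gene passed DESeq2 (adjusted p 0.017 and 0.207). Among 11 modifiers of the pathway, 3 were higher and 0 lower in 3 of 3 pairs, beside 17% and 16.1% of all tested genes. A list of 13 other tested targets and feedback genes had 4 lower and 4 higher, with a median log2 fold change of 0.06. Its members included Cdkn1a, a cell-cycle inhibitor, at 458, 515 and 541 RPM with compound E and 357, 419 and 428 RPM in DMSO (0.34 ± 0.077). Another was Id1, an inhibitor of basic helix-loop-helix factors, at 88, 94.2 and 75.7 RPM with compound E and 99.6, 166 and 103 RPM in DMSO (-0.47 ± 0.14).

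Beyond the pathway, 63 genes were at least 2-fold lower and 45 at least 2-fold higher in each of the 3 pairs. When the mean of the group with more reads also had to be 10 RPM or above, 16 lower and 4 higher genes were left. The 16 lower genes were Hes5, C030013G03Rik, Fzd9, Trim50, Igfbp3, Prdm12, Prss23, Hes1, Gm266, Nrarp, Fabp7, Heyl, Lockd, Exph5, Syt6 and Lfng, and each of them was also past the DESeq2 thresholds. The 4 higher genes were Ly6g6c, Ctss, Lyz2 and C3ar1, of which Ly6g6c and Ctss were past the DESeq2 thresholds. Ctss, Lyz2 and C3ar1 are genes of phagocytes. Of the 63 lower genes 2 were on SC lists and 1 on a list of another cell type, and of the 45 higher genes 0 were on SC lists and 5 on lists of other cell types. Of all 15322 tested genes, 57 were on SC lists and 106 on lists of other cell types. DMSO replicate 3 was above both other DMSO libraries for 40 of the 45 higher genes (88.9%), beside 41.9% of all tested genes. It was below both for 39 of the 63 lower genes (61.9%), beside 24.9%. At P0, 39 of the 59 lower genes tested there (66.1%) were lower in 4 of 4 pairs, beside 14.3% of all genes tested at both ages. Of 29 higher genes, 4 (13.8%) were higher in 4 of 4, which is close to the 14.4% of all genes.

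Fzd9, a Frizzled receptor for Wnt ligands, was 41.8, 31.3 and 17.5 RPM with compound E and 312, 162 and 70.4 RPM in DMSO. Every compound E library was below every DMSO library although the DMSO level itself varied widely. The log2 fold change was -2.42 ± 0.19, with a DESeq2 adjusted p of 2.35e-32. Trim50, an E3 ubiquitin ligase, was 5.69, 4.11 and 1.31 RPM with compound E and 26.9, 16.9 and 5.87 RPM in DMSO (-2.13 ± 0.21, DESeq2 adjusted p 4.34e-08). The genes are neighbors among the 55 called. Fzd9 lies at chr5:135248938-135251230 on the minus strand and Trim50 at chr5:135353295-135368005 on the plus strand (GRCm38, GENCODE M21), 102065 bases apart. The only other such neighbors within 1000000 bases were the epithelial keratins Krt19 and Krt17 on chromosome 11, which lie 107552 bases apart. Krt17 was 0.517, 0.523 and 0.838 RPM with compound E and 9.01, 2.66 and 3.98 RPM in DMSO, and Krt19 was 17, 7.66 and 41.3 RPM with compound E and 76.1, 29.3 and 67 RPM in DMSO. Krt17 separated the groups and Krt19 did not.

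The next genes come from the 40 past the DESeq2 thresholds downward, and they are ordered by what they encode and were not tested as groups. Igfbp3, which binds insulin-like growth factors, was 505, 198 and 164 RPM with compound E and 1620.5, 1475 and 473 RPM in DMSO. Compound E replicate 1 lay above DMSO replicate 3, and the log2 fold change was -2.02 ± 0.28 (DESeq2 adjusted p 0.000249). Il33, an interleukin of epithelial cells, was 15.4, 4.95 and 9.03 RPM with compound E and 72, 27 and 13.2 RPM in DMSO (-1.74 ± 0.40, DESeq2 adjusted p 0.000766). Ntf3, the neurotrophin that supports spiral ganglion neurons, was 73.7, 33.2 and 4.92 RPM with compound E and 125, 119.6 and 18.1 RPM in DMSO. Its DMSO level in replicate 3 was far below the others, and its log2 fold change was -1.46 ± 0.25 (DESeq2 adjusted p 9.30e-07). Fgf15, a fibroblast growth factor, was 11.5, 10.1 and 3.02 RPM with compound E and 32.8, 20.1 and 11.4 RPM in DMSO (-1.45 ± 0.24, DESeq2 adjusted p 0.000495). Pcsk2, a convertase that processes prohormones, was 32.3, 28.5 and 21.7 RPM with compound E and 103, 75.7 and 37.5 RPM in DMSO, without overlap (-1.28 ± 0.19, DESeq2 adjusted p 3.70e-06).

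Ackr3, a scavenging receptor for the chemokine CXCL12, was 30.7, 21.3 and 28.2 RPM with compound E and 109, 98.2 and 48.1 RPM in DMSO (-1.59 ± 0.28, DESeq2 adjusted p 2.92e-06). Adgrg6, an adhesion G protein-coupled receptor, was 191, 108 and 83.3 RPM with compound E and 416, 354 and 139 RPM in DMSO (-1.18 ± 0.19, DESeq2 adjusted p 1.04e-07). Ackr3 separated the groups, and Adgrg6 did not. Prdm12, a transcription factor known from sensory neurons, was 11, 28.4 and 6.26 RPM with compound E and 65, 75.6 and 23.6 RPM in DMSO (-1.94 ± 0.24, DESeq2 adjusted p 4.10e-10). Lockd, a long noncoding RNA transcribed near Cdkn1b, was 38.5, 25.9 and 15.6 RPM with compound E and 92, 107 and 34.3 RPM in DMSO (-1.47 ± 0.20, DESeq2 adjusted p 4.57e-08). The remaining genes named by their rank, C030013G03Rik, Gm266 and Wdr72, had log2 fold changes of -2.73 ± 0.52, -1.80 ± 0.33 and -1.74 ± 0.37. A930031H19Rik and LOC102639337 had 0 counts in all 3 compound E libraries, against 41 to 55 and 15 to 63 counts in DMSO. Adam19, a membrane protease, had 1, 0 and 61 counts with compound E and 132, 49 and 124 in DMSO, so its difference rested on pairs 1 and 2.

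**Figure D2:**
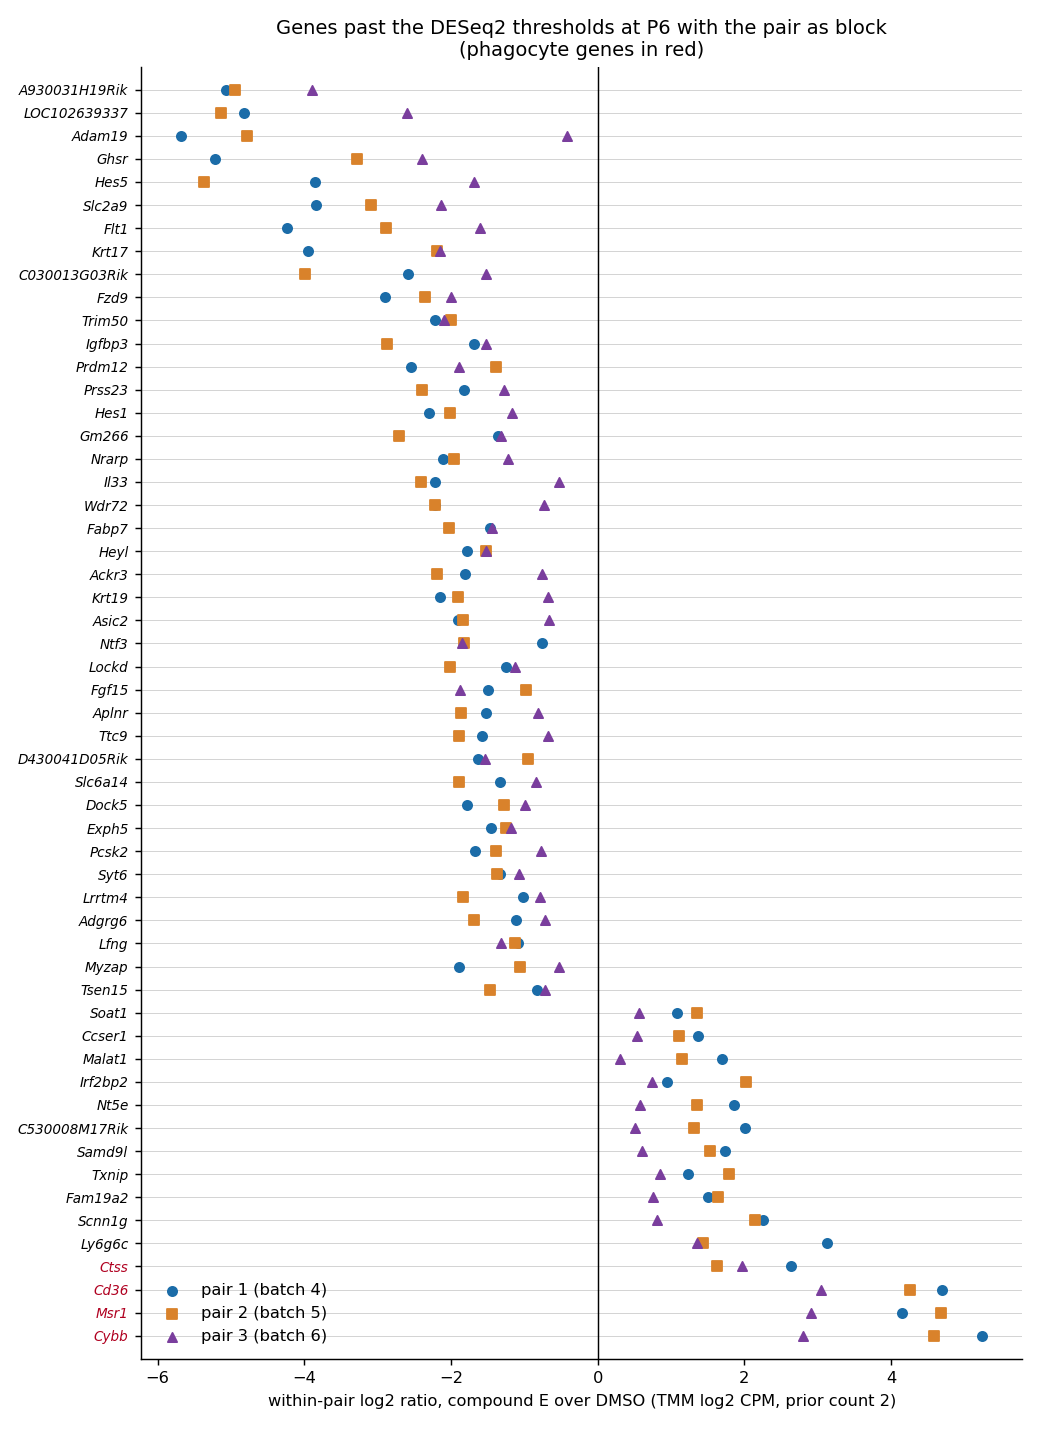
Within-pair log2 ratio of compound E over DMSO for the 55 genes past the DESeq2 thresholds at P6, 40 lower and 15 higher, with 1 point for each of the 3 pairs. All points of a gene lie on one side of zero, and pair 3 lies closest to zero for 34 of the 40 lower and 14 of the 15 higher genes. Over all tested genes the SD of this ratio was also smallest in pair 3, at 0.44 against 1.27 and 0.92 in pairs 1 and 2.

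The levels of the 55 genes also varied with batch among the untreated libraries. DMSO replicate 3 was below both other DMSO libraries for 33 of the 40, beside 24.9% of all tested genes, and for 343 of the 562 genes (61%) that were lower at an unadjusted p under 0.05. For the 15 higher genes DMSO replicate 3 was above both others for 12, beside 41.9% of all genes, and for 341 of 546 genes (62.5%) at an unadjusted p under 0.05. These genes were chosen on the same DMSO and compound E values, so the counts describe them and are not separate evidence. What set batch 6 apart was not tested.

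The higher genes were of mixed kind. Txnip, an inhibitor of thioredoxin that responds to glucose, was 119, 131 and 150.03 RPM with compound E and 50.3, 38.4 and 84.1 RPM in DMSO. The groups did not overlap, and the log2 fold change was 1.29 ± 0.19 (DESeq2 adjusted p 5.02e-08). Soat1, which esterifies cholesterol, was 241, 242 and 350.3 RPM with compound E and 114, 96 and 239 RPM in DMSO (1.00 ± 0.16, DESeq2 adjusted p 6.48e-07). Ly6g6c, a small membrane-anchored protein of the Ly6 family, was 50.2, 33.7 and 23.2 RPM with compound E and 5.71, 12.5 and 9.12 RPM in DMSO (1.95 ± 0.38, DESeq2 adjusted p 3.52e-05). All 3 separated the groups. Each of them overlaps a gene on the opposite strand, Gm15441 for Txnip, Gm37648 for Soat1 and Mpig6b for Ly6g6c. Irf2bp2, a transcriptional corepressor, was 385, 353 and 139 RPM with compound E and 199.6, 88.2 and 83.9 RPM in DMSO, with overlap (1.23 ± 0.26, DESeq2 adjusted p 1.24e-05). Fam19a2, a secreted chemokine-like protein, was 47.5, 51.9 and 37.6 RPM with compound E and 16.8, 16.9 and 22.4 RPM in DMSO (1.30 ± 0.21, DESeq2 adjusted p 3.52e-05).

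Scnn1g, a subunit of the epithelial sodium channel, was 9.03, 27.7 and 20.3 RPM with compound E and 1.84, 6.3 and 11.6 RPM in DMSO (1.73 ± 0.35, DESeq2 adjusted p 0.001). Samd9l, an interferon-inducible gene, was 36.8, 43.9 and 67.7 RPM with compound E and 11.1, 15.4 and 45.1 RPM in DMSO (1.28 ± 0.24, DESeq2 adjusted p 0.000221). Of the 16 tested genes on the interferon list 1 was higher and 2 were lower in 3 of 3 pairs, beside 17% and 16.1% of all tested genes. Malat1, a nuclear long noncoding RNA, was 5498, 6128 and 7128 RPM with compound E and 1705, 2799 and 5809.99 RPM in DMSO (1.05 ± 0.25, DESeq2 adjusted p 7.08e-05). The difference was large in pair 1 and small in pair 3. Gcnt1, Hmgcll1, Tgfbr3, Gpr153 and A730020E08Rik, named by the size of their increase, had log2 fold changes from 2.10 (Gcnt1) to 1.32 (A730020E08Rik) and did not pass DESeq2, with adjusted p from 0.0211 to 0.223. A730020E08Rik overlaps the start of Ccser1 on the opposite strand, and Ccser1 was itself past the DESeq2 thresholds. Reads in the stretch that the 2 genes share cannot be told apart.

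SC genes were counted apart from genes of cell types that could contaminate the sort. The SC lists held 57 tested genes, of which 26 (45.6%) were lower and 6 (10.5%) higher in 3 of 3 pairs, beside 16.1% and 17% of all tested genes. The SC lists took in genes of the Kölliker organ and its matrix. Among their members, Hey2 is also a listed Notch target, Jag1 a Notch ligand and Lgr6 a Wnt target, so the list counts are not independent. Lists of cells that should be absent from the sort, including HCs, macrophages, fibroblasts, vessel cells, glia, neurons, pigment cells and blood cells, held 106 tested genes of 165 listed. Of these, 18 (17%) were lower and 21 (19.8%) higher in 3 of 3 pairs. The median log2 fold change was -0.18 for the SC lists, 0.09 for the other lists and 0.01 for all tested genes. DMSO replicate 3 was below both other DMSO libraries for 29 of the 57 SC genes and above both for 17, while for the 106 genes of other cells it was above both for 78 and below both for 11.

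**Figure D3:**
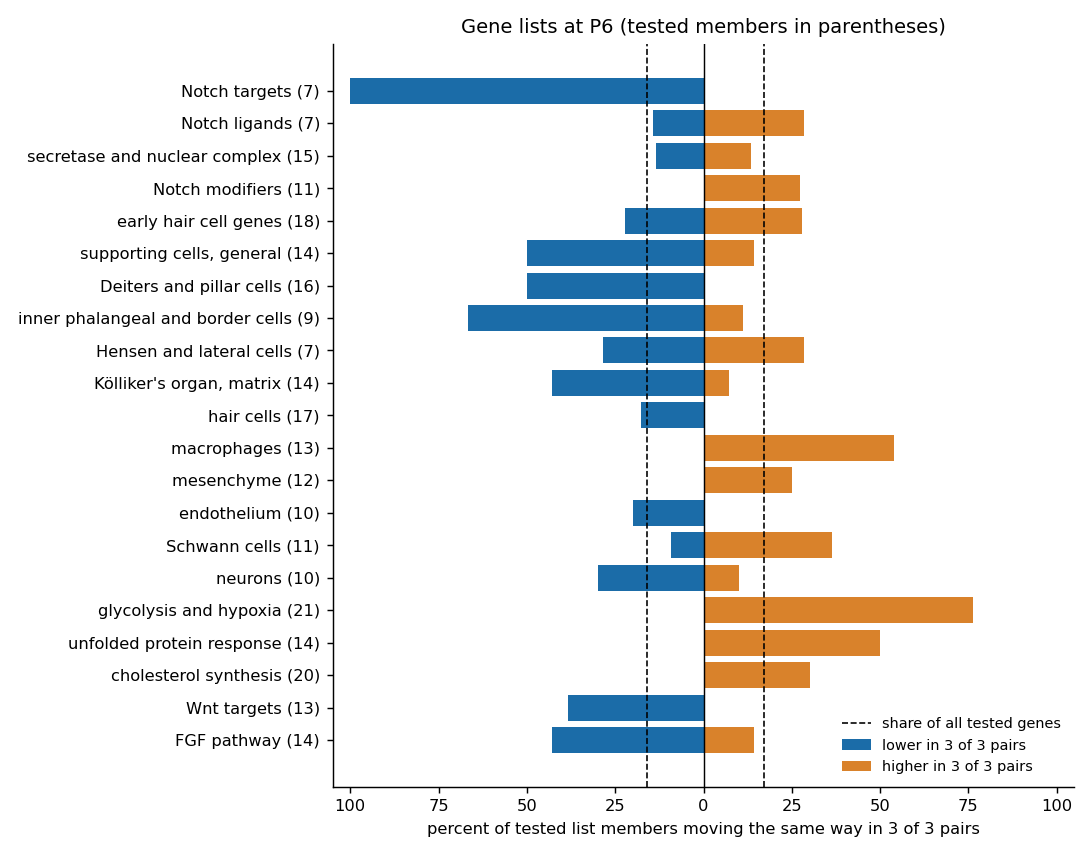
Share of the tested genes of each list that were lower or higher with compound E in 3 of 3 pairs at P6, with the shares over all tested genes as dashed lines. All 7 Notch targets were lower, the lists of inner phalangeal, Deiters and pillar cells lean to lower, and the glycolysis and macrophage lists lean to higher.

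Among SC subtypes, inner phalangeal and border cells, which surround the inner HCs, had the largest share of lower genes. Of 9 tested genes 6 were lower and 1 was higher in 3 of 3 pairs, beside 16.1% and 17% of all tested genes. Of the 9 genes, 3 were lower past the DESeq2 thresholds, beside 0.254% of the genes in that fit. Fabp7, a lipid-binding protein of these cells, was 124, 175 and 58.6 RPM with compound E and 344, 724 and 161 RPM in DMSO (-1.65 ± 0.14, DESeq2 adjusted p 1.16e-25). Prss23, a serine protease, was 293, 259 and 132 RPM with compound E and 1042, 1386 and 322 RPM in DMSO (-1.83 ± 0.21, DESeq2 adjusted p 2.12e-19). Slc6a14, an amino acid transporter, was 110.2, 79.4 and 49 RPM with compound E and 277, 298 and 88.9 RPM in DMSO (-1.36 ± 0.20, DESeq2 adjusted p 7.45e-09). Only Prss23 of these 3 separated the groups, and all had their lowest DMSO value in replicate 3. Prss23 overlaps Prss23os on the opposite strand. The list did not share one direction, since Rorb, a nuclear receptor on the same list, was 547, 683 and 557 RPM with compound E and 390.5, 481 and 452 RPM in DMSO, higher without overlap (0.44 ± 0.086, DESeq2 adjusted p 0.000766).

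Deiters and pillar cells lie below and between the outer HCs. Of their 16 genes 8 were lower and 0 higher in 3 of 3 pairs, beside 16.1% and 17% of all tested genes. Lgr5, a Wnt-regulated receptor that marks SCs with progenitor capacity, was 105, 88.9 and 42.1 RPM with compound E and 215, 126 and 60.1 RPM in DMSO (-0.67 ± 0.14, DESeq2 adjusted p 0.00632). Prox1, a homeodomain factor of these cells, was 105, 56.7 and 24.4 RPM with compound E and 212, 73 and 32.8 RPM in DMSO (-0.59 ± 0.16). Emid1 was 249.97, 166 and 65.2 RPM with compound E and 379, 226 and 80.6 RPM in DMSO (-0.44 ± 0.10). In each of these genes the drop between DMSO replicates 1 and 3 exceeded the difference within any pair. DMSO replicate 3 was below both other DMSO libraries for 13 of the 16 genes. The summed level of the list was 4986, 4727 and 2747 RPM with compound E and 7064, 4733 and 2687 RPM in DMSO, so it was well below DMSO in pair 1 and nearly equal within pairs 2 and 3.

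Of 14 genes shared by SC types, 7 were lower and 2 higher in 3 of 3 pairs, beside 16.1% and 17% of all tested genes. Sox2, which maintains the sensory lineage, was 179.96, 147 and 96.1 RPM with compound E and 278, 281 and 158 RPM in DMSO (-0.75 ± 0.10, DESeq2 adjusted p 2.17e-07). Epcam, an epithelial adhesion molecule, was among the higher ones, with a log2 fold change of 0.23 ± 0.079. Of 7 genes of Hensen and other lateral cells, 2 were lower and 2 higher in 3 of 3 pairs, with a median log2 fold change of 0.097. The higher genes were Fst, which binds activin, and Lmo3, a transcriptional cofactor, with log2 fold changes of 1.02 ± 0.35 and 0.94 ± 0.37 and DESeq2 adjusted p of 0.405 and 0.399. Of the lower genes, Ano1, a chloride channel, was 915, 1065 and 953 RPM with compound E and 1165, 2361 and 1689 RPM in DMSO, without overlap (-0.76 ± 0.15, DESeq2 adjusted p 7.98e-05). Otoa, which anchors the tectorial membrane, was 148, 266 and 313 RPM with compound E and 242, 381 and 422 RPM in DMSO (-0.54 ± 0.095, DESeq2 adjusted p 0.000534). Of 14 tested genes of the Kölliker organ and its matrix, 6 were lower and 1 was higher in 3 of 3 pairs, beside 16.1% and 17% of all tested genes. The lower ones included Tecta, a tectorial membrane protein, and Col2a1, a collagen of that matrix, with log2 fold changes of -0.46 ± 0.15 and -0.36 ± 0.081.

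**Figure D4:**
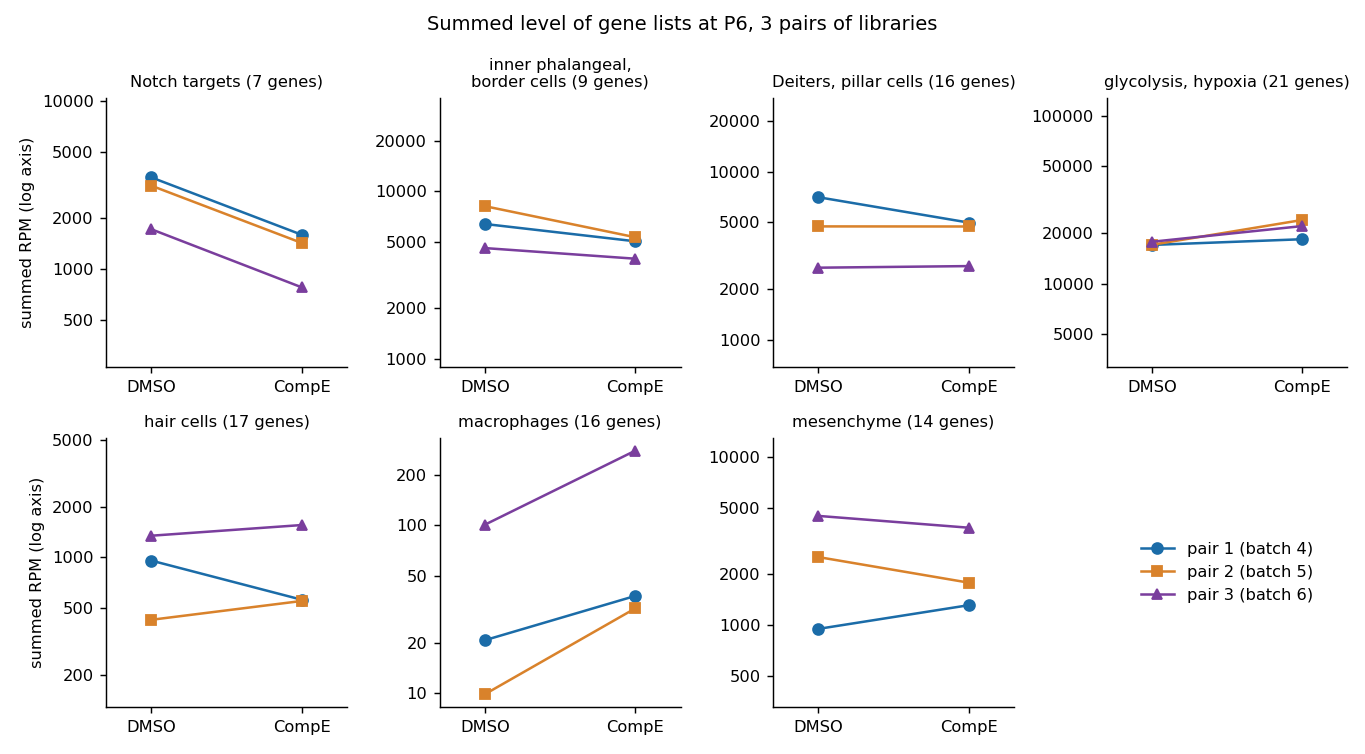
Summed RPM of 7 gene lists in each P6 library on log axes of equal fold range, with DMSO on the left, compound E on the right, and a line for each pair. The summed Notch targets, most of which is Lfng, are lower in each pair, the macrophage list is higher in each pair and highest in pair 3, and the hair cell and mesenchyme lists change direction between pairs.

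Among genes of other cells, those of phagocytes were higher with compound E. Of 13 tested macrophage genes 7 were higher and 0 lower in 3 of 3 pairs, beside 17% and 16.1% of all tested genes. The median log2 fold change of the 13 was 1.42. A gene near zero in DMSO could pass the low-count filter through its compound E libraries, so this share and median may be raised by the filter. The summed level of the 16 listed genes was 38.0, 32.1 and 278.5 RPM with compound E and 20.7, 9.87 and 100.8 RPM in DMSO. The log2 ratio of these sums was 0.88, 1.70 and 1.47 in pairs 1, 2 and 3, so the difference was there without pair 3 as well. The defining markers were at or near zero outside pair 3. Ptprc, the pan-leukocyte marker CD45, was 0.278, 0.0348 and 17.8 RPM with compound E and 0, 0.252 and 8.23 RPM in DMSO, and Csf1r, the receptor that macrophages depend on, was 0.477, 2.09 and 27.5 RPM with compound E and 1.71, 0 and 8.81 RPM in DMSO. Lyz2, a lysozyme, was 2.07, 3.24 and 92.9 RPM with compound E and 0, 0.612 and 23.1 RPM in DMSO. The difference in this gene was thus carried by pair 3 in absolute terms, although every pair was higher.

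Among the 15 higher genes past the DESeq2 thresholds, 4 are also known from phagocytes, though they were not on the list and were noticed after their values were seen. Ctss, a lysosomal protease, was 6.32, 1.01 and 32.2 RPM with compound E and 0.959, 0.288 and 8.23 RPM in DMSO (DESeq2 adjusted p 6.52e-05). Cd36, a scavenger receptor, was 1.71, 1.18 and 26.2 RPM with compound E and 0, 0 and 3.15 RPM in DMSO (DESeq2 adjusted p 7.79e-05). Cybb, a subunit of the phagocyte oxidase, was 2.55, 1.5 and 21.1 RPM with compound E and 0, 0 and 3.01 RPM in DMSO (DESeq2 adjusted p 6.35e-05). Msr1, another scavenger receptor, was 1.154, 1.6 and 17.7 RPM with compound E and 0, 0 and 2.31 RPM in DMSO (DESeq2 adjusted p 0.000282). All 4 had their highest value in compound E replicate 3, and Cd36, Cybb and Msr1 had 0 counts in DMSO replicates 1 and 2. C3ar1, the receptor for complement C3a, followed the same pattern at 5.21, 2.54 and 27.3 RPM with compound E and 0, 0 and 5.14 RPM in DMSO but did not pass DESeq2 (adjusted p 0.108). Whether more phagocytes entered the sort was not tested.

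Among the remaining lists, the summed levels of mural cell genes (log2 ratios of -1.19, -0.62 and -0.35 in pairs 1, 2 and 3) and of neuron genes (-0.34, -0.59 and -0.23) were lower in each pair. So were those of melanocyte or intermediate cells (-0.29, -0.41 and -0.042) and of marginal cells of the stria (-0.48, -0.12 and -0.028). The Notch receptor Notch3, described above as lower, is on the mural list and made up most of its sum in every P6 library. The erythroid list was higher in each pair but summed to at most 6.48 RPM. Fibroblast and endothelial sums were of mixed sign. The mesenchyme list summed to 1313, 1787 and 3797 RPM with compound E and 948, 2539 and 4464 RPM in DMSO, higher in pair 1 and lower in pairs 2 and 3. Of its 12 tested genes 3 were higher in 3 of 3 pairs, beside 17% of all tested genes. The 3 included Col1a2, a collagen of fibroblasts, and Otor, an otic fibrocyte protein. DMSO replicate 3 was above both other DMSO libraries for all 12, beside 41.9% of all tested genes. Endothelial genes summed to 31.7, 48.8 and 86.2 RPM with compound E and 34.2, 39.8 and 94.7 RPM in DMSO. Within that list Flt1, a receptor for vascular endothelial growth factor, was 0.199, 0.279 and 4.04 RPM with compound E and 5.01, 2.52 and 12.6 RPM in DMSO and was past the DESeq2 thresholds (adjusted p 0.00207). Aplnr, the apelin receptor, was 4.89, 10.7 and 25.6 RPM with compound E and 14.2, 39.5 and 45.6 RPM in DMSO (DESeq2 adjusted p 0.000201). The granulocyte and mast cell list summed to 180.8 and 123.7 RPM in compound E and DMSO replicate 3 and to at most 3.94 RPM in the other 4 libraries.

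HC genes were not higher as a group at P6. Of 17 genes of the differentiated HC, 3 were lower and 0 higher in 3 of 3 pairs, beside 16.1% and 17% of all tested genes. Their sum was 557, 548 and 1553 RPM with compound E and 953, 424 and 1342 RPM in DMSO. Of the 4 genes that start HC fate, Atoh1 was higher in 3 of 3 pairs, at 18.9, 7.35 and 6.37 RPM with compound E and 7.01, 5.94 and 5.99 RPM in DMSO. The difference was large in pair 1 alone, and the log2 fold change of 0.62 ± 0.33 did not pass DESeq2 (adjusted p 0.791). Pou4f3, an HC transcription factor downstream of Atoh1, was 3.26, 3 and 8.74 RPM with compound E and 7.01, 2.48 and 9.93 RPM in DMSO (-0.33 ± 0.38). Hes6, a Hes family gene of differentiating HCs, was 34.5, 27.8 and 30 RPM with compound E and 26.4, 30.1 and 32.8 RPM in DMSO (0.06 ± 0.16). Zfp503, a zinc finger gene on the same list, was 9.79, 4.95 and 7.43 RPM with compound E and 10.2, 4.25 and 6.7 RPM in DMSO (0.11 ± 0.25). All 3 of these overlapped between groups and were mixed over the pairs. Of 18 other genes of early HCs 5 were higher and 4 lower in 3 of 3 pairs, beside 17% and 16.1% of all tested genes. Myo6, an unconventional myosin, was 400.4, 373 and 693 RPM with compound E and 345, 247 and 528 RPM in DMSO (0.41 ± 0.10). Rbm24, an RNA-binding protein of HCs, was 111, 71.8 and 163 RPM with compound E and 284, 267 and 211 RPM in DMSO and separated the groups downward (-1.20 ± 0.28), without passing DESeq2 (adjusted p 0.324).

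A metabolic list was higher with compound E. Of 21 genes of glycolysis and the hypoxia response, 16 were higher and 0 lower with compound E in 3 of 3 pairs, beside 17% of all tested genes, and the median log2 fold change was 0.36. The fitted difference stayed under 2-fold for each of them. Hk2, a hexokinase, was 216, 241 and 268 RPM with compound E and 125, 106 and 181 RPM in DMSO, without overlap (0.86 ± 0.14, DESeq2 adjusted p 5.32e-06). Gpi1, the next enzyme of glycolysis, was 706, 828 and 982 RPM with compound E and 513, 531 and 711 RPM in DMSO (0.53 ± 0.084, DESeq2 adjusted p 1.04e-05). Ndrg1, induced by hypoxia, was 250.2, 329.5 and 389 RPM with compound E and 171, 146 and 261 RPM in DMSO (0.78 ± 0.15, DESeq2 adjusted p 9.56e-05). Ankrd37, another hypoxia-induced gene, was 53.5, 87.2 and 65.1 RPM with compound E and 35.1, 43 and 45.8 RPM in DMSO (0.72 ± 0.14, DESeq2 adjusted p 0.00612). The list summed to 18431, 24005.5 and 22074 RPM with compound E and 17040.5, 17068 and 17794 RPM in DMSO. At P0 the same genes had a median log2 fold change of -0.17, and the difference between ages was called for 0 of the 21.

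Of 14 genes of the unfolded protein response 7 were higher and 0 lower in 3 of 3 pairs, beside 17% and 16.1% of all tested genes. Sdf2l1, a chaperone cofactor of the endoplasmic reticulum, was 86.2, 71.6 and 47.9 RPM with compound E and 54.4, 38 and 32.3 RPM in DMSO (0.73 ± 0.12, DESeq2 adjusted p 0.00118). Hsp90b1, a chaperone of the same compartment, had a log2 fold change of 0.58 ± 0.12 (DESeq2 adjusted p 0.000899) and no overlap. Of 20 genes of cholesterol synthesis 6 were higher and 0 lower, led by Msmo1, a sterol demethylase (0.52 ± 0.10, DESeq2 adjusted p 0.00873). In the FGF list 6 of 14 genes were lower and 2 higher, with a median of -0.13. Fgf20, a ligand needed for sensory development, was 1.71, 4.46 and 0.583 RPM with compound E and 10.3, 9.33 and 2.28 RPM in DMSO (-1.85 ± 0.44), and Etv4, a target of FGF signaling, had a log2 fold change of -1.15 ± 0.34. Among 13 Wnt targets 5 were lower and 0 higher, beside 16.1% and 17% of all tested genes, but the median log2 fold change was 0.062. The lower ones included Lgr6, a stem cell receptor, and Dkk3, a secreted Dickkopf family protein (-0.48 ± 0.15 and -0.66 ± 0.17). Cell cycle genes (1 lower and 3 higher of 16) and immediate early genes (3 and 3 of 18) stayed near the share of all genes.

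The P0 libraries, which share no library with P6, were used to look at the same genes in other cells. At P0 edgeR with the block called 241 genes lower (1.51%) and 109 higher (0.684%), and 14% of tested genes were lower and 14.2% higher in 4 of 4 pairs. Of the 40 lower genes at P6, 39 were tested at P0, 35 were lower there in 4 of 4 pairs, 27 were called lower and 1, Adam19, was called higher. Of the 15 higher genes 11 were tested at P0, 8 were higher in 4 of 4 pairs and 3 were called higher. Of the 16 well-expressed genes that were at least 2-fold lower in each P6 pair, 15 were called lower at P0. Among the larger set at an unadjusted p under 0.05, 270 of 559 lower genes (48.3%) were lower in 4 of 4 pairs at P0, and 163 of 532 higher genes (30.6%) were higher.

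**Figure D5:**
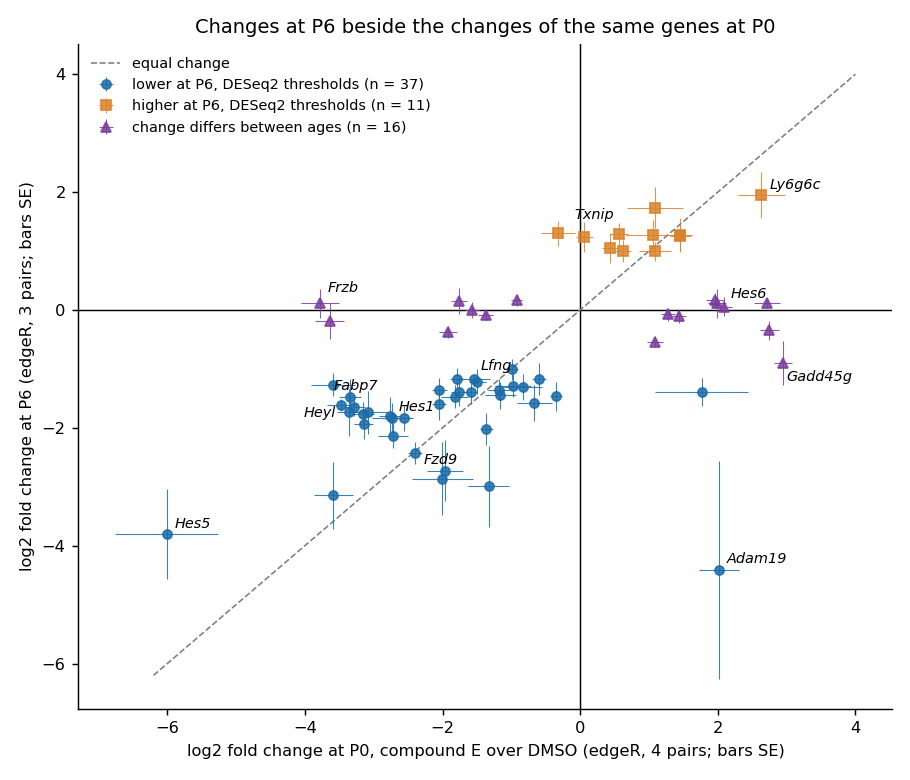
Fitted log2 fold change at P0 (4 pairs) against that at P6 (3 pairs), with SE bars, for genes past the DESeq2 thresholds at P6 and tested at both ages (37 lower, 11 higher; 2 lower genes with 0 counts in all P6 compound E libraries are left out) and for the 16 genes whose change differed between ages. Most of the lower genes lie below zero at both ages, and the 16 genes lie between -0.90 (Gadd45g) and 0.17 (Ahr) at P6.

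Taken from the other side, the genes called at P0 kept part of their direction at P6. Of 226 genes called lower at P0 and tested at P6, 134 (59.3%) were lower in 3 of 3 pairs at P6 and 8 were higher, with a median log2 fold change of -0.60. Of 104 genes called higher at P0, 42 (40.4%) were higher in 3 of 3 pairs at P6 and 9 were lower, with a median of 0.29. The largest P0 decrease with enough reads was Hes5. Tal1 and Cysltr2 followed, a blood and vessel transcription factor and a leukotriene receptor, and both had 0 counts in all 6 P6 libraries. The next genes were Tnfaip2 and Nos1, with P6 log2 fold changes of -0.32 ± 1.19 and 0.58 ± 0.59, both of which change sign without pair 2. The largest P0 increases were Gad2, Tph1, Adamts15, Gadd45g and Nipal4, and their P6 log2 fold changes were -1.75 ± 1.26, 0.43 ± 1.33, 0.30 ± 0.22, -0.90 ± 0.37 and 0.65 ± 0.41, none past the DESeq2 thresholds. Tph1 and Adamts15 change sign without pair 2.

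A direct test of the difference between ages, in 1 edgeR fit over all 14 libraries, called 16 of 17090 genes (0.0936%). Of these 16 genes, 15 were also called by the P0 fit with the block. The P6 fit with the block called no gene at all, so it says nothing about these 16 in particular. The 16 were 0 in the fit without a block, and leaving out 1 pair at either age gave between 0 and 8 genes. The count was 0 without P0 pair 1, P0 pair 2, P6 pair 2 or P6 pair 3. Hes6 was 2.02 log2 units less increased at P6 than at P0 (SE 0.19), and Zfp503 1.86 (SE 0.21), which makes 2 of the 4 HC fate genes. Gadd45g, a stress-induced regulator near the start of HC differentiation, and Col13a1, a transmembrane collagen, differed by -3.84 and -3.08. In the other direction Frzb, a secreted Wnt antagonist, and Pdzk1ip1, a small membrane protein, differed by 3.90 and 3.45, being lower at P0 and not at P6. None of the 7 Notch targets was called, and the lowest edgeR adjusted p among them were 0.023 for Heyl and 0.0416 for Hey1, both less lowered at P6. Atoh1 had a log2 fold change of 1.94 at P0 and 0.62 at P6, and the difference of -1.29 had an edgeR adjusted p of 0.135, so its change was not shown to differ between ages.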

How the data were processed

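RNA was measured in Lfng-EGFP+ cells sorted from cochlear explants, in 3 compound E and 3 DMSO libraries at P6 and 4 of each at P0. The authors prepared full-length cDNA libraries, trimmed reads with Trim Galore 0.6.0 and cutadapt 1.15, aligned them with STAR to GRCm38 and deposited raw counts per gene, 1 table for each age. The STAR version in the submitters' processing notes is 2.7.0f, while the methods name another release. The annotation release and strand setting are not given in the sources used here.

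Counts were analysed in R 4.3.3. The test was edgeR 4.0.16's quasi-likelihood F-test with TMM scaling, genes kept by a minimum count of 10, and the replicate number as a block. Genes were called at a p of 0.01 or less after Benjamini-Hochberg adjustment together with a 2-fold difference. DESeq2 1.42.0 (the tool the authors used) with the same block, limma 3.58.1 (voom), fits without the block, other scaling, no filter and leaving out each replicate were alternatives. A gene was lower or higher in 3 of 3 pairs by the sign of its within-pair log2 ratio of TMM-scaled CPM (prior count 2). RPM values are counts over the library total, and ± is the SE of the fitted log2 fold change over 3 pairs. The age by treatment test was an interaction term over all 14 libraries. All p-values are two-sided.

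The replicate numbers pair the samples: deviations from the group means correlated at 0.265, 0.325 and 0.620 between same-numbered libraries and at most 0.069 between others, and at P6 each number is also a batch in the labels. Library totals of 23972228 to 41207627 counts leave counting error small for genes above about 10 RPM. Without molecular identifiers, counts of amplified cDNA are not independent molecules. No pair of libraries was a duplicate. The edgeR fits with and without the block, and DESeq2 and limma voom with it, were tested on simulated P6 data. There DESeq2 with the block made more false calls than edgeR with the block. The age by treatment test was not run on simulated data.

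Genes were named by rule: the Notch targets and HC fate genes, the 12 largest decreases and increases of one sign in 3 of 3 pairs at an unadjusted p under 0.05 and at least 10 RPM, the 10 lowest DESeq2 adjusted p in each direction, the 5 largest P0 changes in each direction, described members of gene lists with the lowest p or highest level, and the genes called between ages. The other genes past the DESeq2 thresholds that the text names, and the 4 phagocyte genes among them, were picked after their values were seen. The genes compared, lists and tests were chosen with earlier results of these data known. Positions are from GENCODE M21 (87 of 90 genes found) and upstream sequences from RefSeq. Other named genes, such as Irf2bp2, Prdm12, Pcsk2, Fgf15 and Lockd, also overlap a gene on the opposite strand, and the text gives only some of these overlaps. Nothing was left out among the P6 columns.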

Additional observations from a re-analysis of the deposited data

Results flagged for a closer look

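The response to compound E differed between ages for 16 genes in the interaction test (edgeR, adjusted p from 0.00270 to 0.00918). Values are the log2 change at P6 minus that at P0. In 9 of them the P0 change was an increase that P6 lacked. These were Gadd45g (-3.84), Col13a1 (-3.08), Hhatl (-2.57), Hes6 (-2.02), Zfp503 (-1.86), Padi2 (-1.78), Otoa (-1.61), Tmprss2 (-1.53) and Mfi2 (-1.34). Otoa was higher at P0 (1.08) and lower in 3 of 3 pairs at P6 (-0.54). In the other 7 the P0 change was a decrease, which was smaller or missing at P6. These were Frzb (3.90), Pdzk1ip1 (3.45), Cxcl12 (1.94), Dclk1 (1.59), Rab3b (1.56), Gpc1 (1.30) and Ahr (1.10). At P6 their log2 fold changes lay between -0.37 (Rab3b) and 0.17 (Ahr). No library of any P6 group could be tested as an outlier, since each group held 3.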

How the results depend on the processing

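The P6 calls depended on the tool and on the pairing. Against 0 genes with edgeR and the block, DESeq2 with the block called 55, DESeq2 without it 13, edgeR without a low-count filter 6 and limma voom with the block 4 (Heyl, Fzd9, Lfng and Fabp7). The fit with no replicate block, DESeq2 size factors in edgeR, the newer quasi-likelihood method, an adjusted p of 0.05 without a fold threshold and each left-out replicate gave 0. For the 7 Notch targets the calls were 5, 3, 3 and 2 in the same order as the 4 alternatives above, and 4, 4 and 5 with DESeq2 and the block without replicate 1, 2 and 3.

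At an unadjusted p under 0.05 the blocked fit held 1108 genes, against 289 with no replicate block, 491 with DESeq2 without the block and 467 (without replicate 2) to 1760 (without replicate 1) over the left-out replicates. The 40 lower and 15 higher genes of DESeq2 were 4 and 0 with limma voom, and 15 to 43 lower and 6 to 25 higher with a replicate left out, the fewest without replicate 2. All 55 kept their sign in the DESeq2 fits with a replicate left out, with 14 to 30 of the lower and 5 to 11 of the higher genes still past the thresholds. A 1.5-fold minimum in every pair left 168 genes lower and 170 higher in 3 of 3 pairs, and leaving out a pair gave 3834 to 4824 and 4051 to 4671, since only 2 pairs then had to share a sign.

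Of the genes called lower at P0, 134 were lower in 3 of 3 P6 pairs and 49 with a 1.5-fold minimum. Of those called higher, 42 were higher, 3 with that minimum and 15 when the P0 genes were called with no replicate block. The ranges without 1 replicate were 145 to 164 and 52 to 56. Genes that differed between ages numbered 16, against 0 with no replicate block, 183 with DESeq2, 71 without a low-count filter, 84 at an adjusted p of 0.05 without a fold threshold, and 0 (without P0 replicate 1, P0 replicate 2, P6 replicate 2 or P6 replicate 3) to 8 with a replicate left out. DESeq2 and the unfiltered fit included all 16. Of 61 named genes, 8 changed sign in some fit, and none of the 8 was past the DESeq2 thresholds at P6. Over the left-out replicates, log2 fold changes ran from -0.10 to 0.15 for Hes6, -0.63 to 0.046 for Pou4f3, -1.59 to 0.81 for Tnfaip2 (0.60 without replicate 3), -0.10 to 1.20 for Nos1, -0.85 to 1.75 for Tph1, -0.036 to 0.55 for Adamts15, -0.23 to 0.45 for Frzb and -0.18 to 0.13 for Dclk1. Nos1 was also negative with no replicate block (-0.080), DESeq2 without the block (-0.078) and limma voom (-0.029), and Tph1 in those fits (-0.22, -0.22 and -0.039) and with the newer quasi-likelihood method (-0.071). The cause of these differences was not tested.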
